A study of Mus musculus with 2 samples.

Results

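The genes described here encode the nuclear-encoded subunits of mitochondrial respiratory complexes II, III, IV and V. They were measured in KSL cells, sorted from bone marrow as positive for c-Kit and Sca-1 and negative for lineage markers, a gate that enriches stem cells and early progenitors of the blood. Members were the genes of the deposited table whose probe sets carried 1 gene symbol of the Sdha to Sdhd, Uqcr, Cyc1, Cox4 to Cox8 or Atp5 families, and 47 of 19938 measured genes met this rule. Complex II had 4 of them, complex III 9, complex IV 17 and complex V 17. Another 3 probe sets that carried the symbol Cox7c together with a second symbol were left out by the rule. Of the measured genes, 0 had a symbol with the mt- prefix of genes of mitochondrial DNA. Other names for the subunits encoded there were not searched.

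The series compared 1 RNA pool of KSL cells from Nrf2-/- mice with 1 pool from Nrf2+/+ mice, on 1 Affymetrix array each. Both genotypes were young, healthy C57BL/6J mice aged 8 to 10 weeks, untreated as far as the labels say, and marrow from 5 mice per genotype was pooled before sorting. The labels name neither the deleted stretch of Nrf2 nor the cells in which it was lost. With 1 value per gene and genotype, the number of arrays limited the precision, and no replicate error, test or p-value could be given. Values are log2 intensities, and every difference is log2 knockout minus log2 wild type, so that −1 is a 2-fold lower signal in the knockout pool.

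The respiratory chain carries electrons from nutrients to oxygen and stores the energy as a proton gradient across the inner mitochondrial membrane. Complex II, succinate dehydrogenase, is also an enzyme of the citric acid cycle and passes electrons to ubiquinone. Complex III moves them on to cytochrome c and complex IV passes them to oxygen, both pumping protons, and complex V, the ATP synthase, uses the gradient to make ATP. Quiescent haematopoietic stem cells are known for relying less on respiration than their dividing progeny. NRF2, the product of Nfe2l2, drives antioxidant genes and is a different protein from the nuclear respiratory factors NRF1 and GABP, which are known regulators of respiratory subunit genes and of which GABP was once also called NRF-2.

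Several facts of the whole arrays bear on the results below. The arrays had the same distribution of values to within 0.0866, so a change common to all genes would not show. Nfe2l2 itself stood at 9.07 in knockout and 9.16 in wild-type cells, which does not check the genotype if its probes lie outside the deleted part. Kit stood at 11.21 and 10.93, and Ly6a, which encodes Sca-1, had no probe set under its own symbol alone. Of 9 measured stem and progenitor markers, 4 were lower in the knockout pool, and their summed linear signal was 12146 in knockout and 10967 in wild-type cells. Of 12 neutrophil markers, 11 were lower, with sums of 6861 and 16282, and of 9 monocyte and macrophage markers 8 were lower, with sums of 1437 and 1857. Erythroid, B lineage and T or NK markers were lower in 2 of 5, 3 of 6 and 5 of 6 measured genes. Their sums in knockout and wild-type cells were 1276 and 1428, 756 and 839, and 873 and 1163 in turn. These marker counts used no level filter, and without it 46.9% of all 19938 genes were lower. The part of such cells in the differences below was not tested.

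Most subunit genes had slightly less signal in the knockout pool, and no subunit gene past the level filter differed by 1.5-fold. The filter kept genes whose mean over both arrays reached the median over genes, 6.57, and 42 of the 47 subunit genes passed it. Of these 42 genes, 33 were lower in the knockout pool and 9 were higher. That is 78.6% lower, where 52.9% of all 9970 genes past the filter were lower and 46.5% higher. Their median difference was −0.16, or 89.5% of the wild-type signal, against −0.02 over all genes past the filter. In a pool of cells, fewer cells that use a gene and less RNA of it per cell cannot be told apart.

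The differences were small and close to each other. They ran from −0.46 for Atp5mpl to 0.31 for Uqcrq, with an SD over the 42 genes of 0.16, where the SD over all genes past the filter was 0.33. At least 1.5-fold lower were 0 of 42 subunit genes, against 4.30% of all genes, and at least 1.5-fold higher were 0 of 42, against 2.34%. At a smaller size, 0.322 on the log2 scale, 2 subunit genes were lower, against 14.5% of all genes, and 0 were higher, against 9.27%. Within this size lay 95.2% of the subunit genes and 76.2% of all genes. The subunit genes thus were mostly slightly lower, with few larger differences of either sign.

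Genes within the level range of the subunits were about as often lower as all genes. Of the 5698 genes whose mean level lay within the range of the 42 subunit genes, 53.4% were lower, with a median difference of −0.02. This set was chosen after the data were seen. The range was wide, from 7.82 for Cox6a2 to 12.12 for Cox6c, and took in much of the 9970 genes past the filter. Levels were not matched gene by gene, so a likeness to all genes says little. Across the 42 subunit genes, which share the same pair of arrays, the difference and the mean level had a correlation of −0.01.

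**Figure D1:**
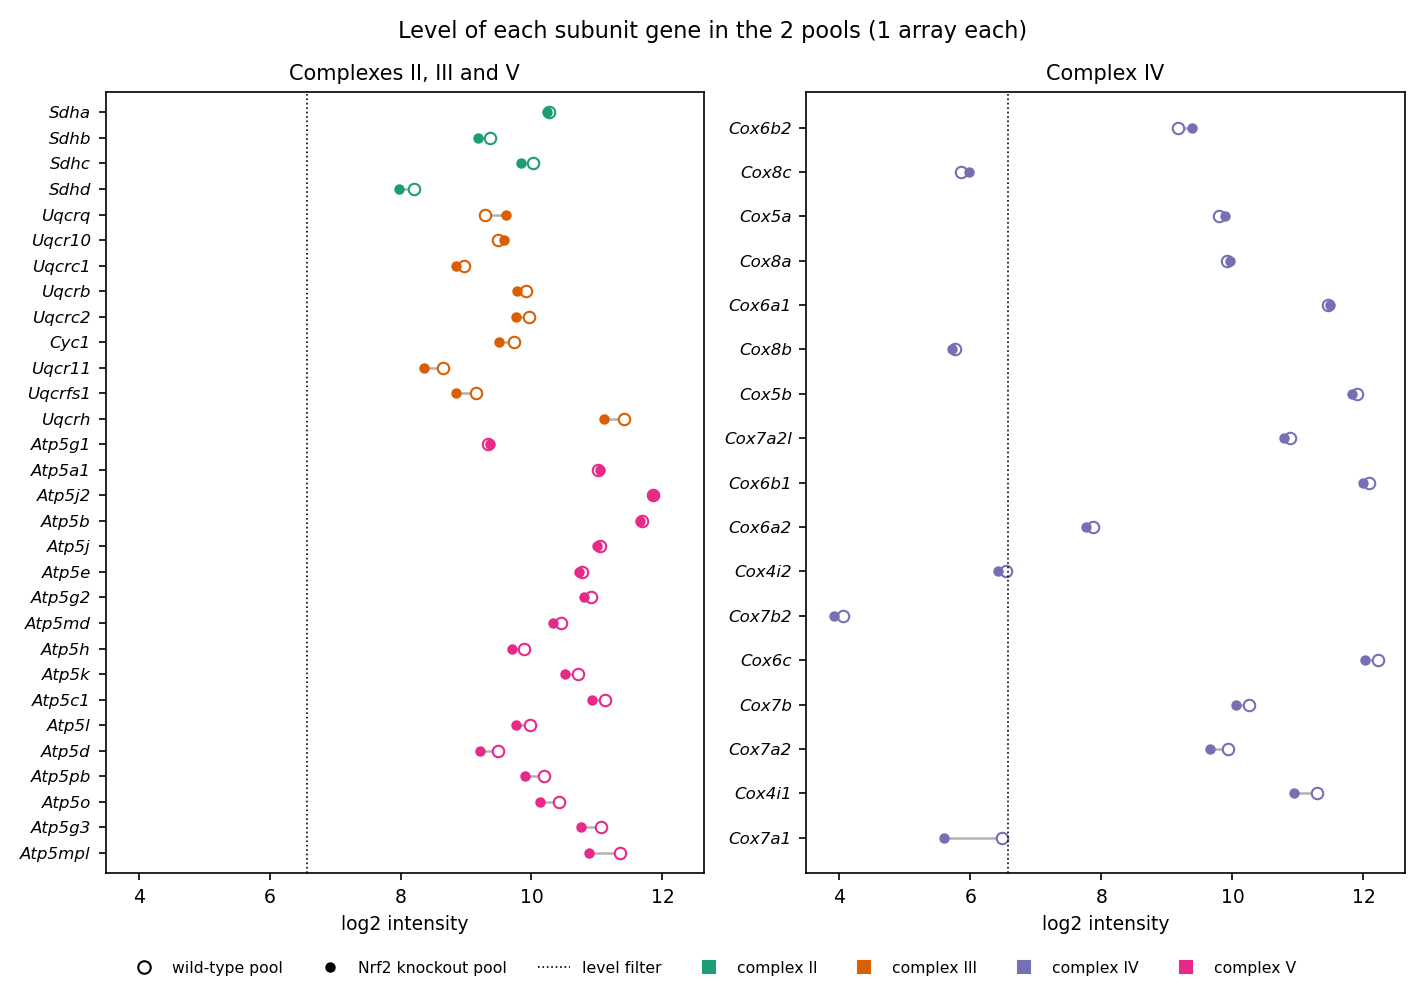
Log2 intensity (horizontal axis) of each of the 47 subunit genes in the wild-type pool (open circle) and the Nrf2 knockout pool (filled circle), 1 array each, sorted within a complex from the highest to the lowest difference and coloured by complex. The dotted line is the level filter of 6.57. The filled circle lies slightly to the left of the open one for most genes, and the widest gap is that of Cox7a1, which is below the filter.

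By complex, the medians of II, III and V were nearly the same and that of IV was closer to 0. The median difference was −0.19 over the 4 genes of complex II, −0.19 over the 9 of complex III, −0.10 over the 12 of complex IV past the filter and −0.18 over the 17 of complex V. Lower in the knockout pool were 4 of 4, 7 of 9, 8 of 12 and 14 of 17 genes in turn. As shares these were 100%, 77.8%, 66.7% and 82.4%, where 52.9% of all genes past the filter were lower. Complex IV was the nearest to that share. The ranges overlapped, from −0.22 to −0.03 in complex II, from −0.32 to 0.31 in complex III, from −0.34 to 0.20 in complex IV and from −0.46 to 0.03 in complex V. The means were −0.16, −0.13, −0.08 and −0.16 in turn, so that by mean complex III lay between IV and the others. With 1 array per genotype these medians and means could not be tested against each other. Over the genes with a single probe set, an alternative chosen after the data were seen, the median of complex IV was −0.03 and that of complex V −0.19, and with quantile normalization that of complex IV was −0.06.

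**Figure D2:**
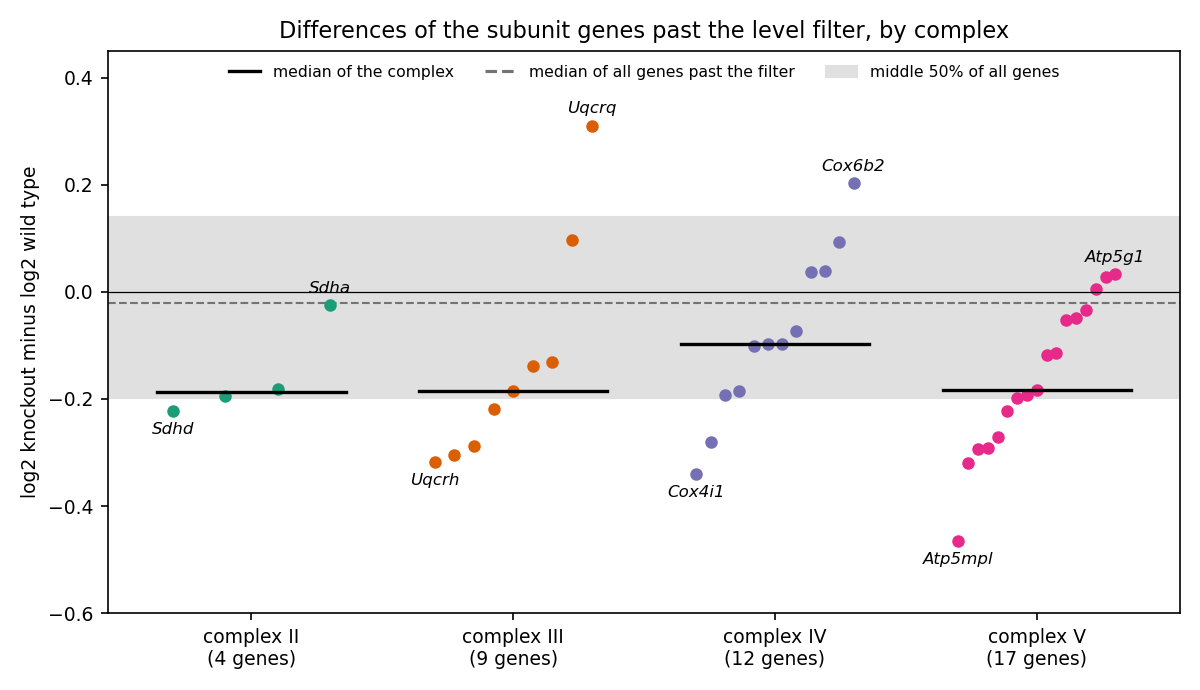
Difference of each of the 42 subunit genes past the level filter (vertical axis, log2 knockout minus log2 wild type), in 4 columns by complex, with the lowest and highest gene of each named. Black bars are the medians, −0.19, −0.19, −0.10 and −0.18, the dashed line is the median of all genes past the filter, −0.02, and the grey band is their middle 50%, so that most subunit genes lie in the lower part of the band or just below it.

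In complex II, all 4 subunits were lower in the knockout pool. The flavoprotein Sdha, which oxidises succinate, stood at 10.24 in knockout and 10.26 in wild-type cells, a difference of −0.03, and its sign turned with quantile normalization. The iron-sulphur protein Sdhb, which carries the electrons onward, stood at 9.18 and 9.37, a difference of −0.18. The membrane anchors differed by about as much as Sdhb. Sdhc stood at 9.84 against 10.03, a difference of −0.19, and Sdhd at 7.98 against 8.20, a difference of −0.22. Sdha was thus nearly level between the pools, while the other 3 genes were at between 85.7% and 88.2% of their wild-type signal.

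In complex III, the subunits that carry electrons and the large core proteins were lower, and the small subunits went both ways. The Rieske iron-sulphur protein Uqcrfs1 stood at 8.85 in knockout and 9.15 in wild-type cells, a difference of −0.30, or 81.0% of wild type. Cytochrome c1, Cyc1, stood at 9.51 and 9.73, a difference of −0.22. The core proteins Uqcrc1 and Uqcrc2 frame the matrix side of the complex. Uqcrc1 stood at 8.84 against 8.97, a difference of −0.13, and Uqcrc2 at 9.77 against 9.95, a difference of −0.19.

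The hinge protein Uqcrh, which sits at the docking site of cytochrome c, was the lowest of the complex, at 11.10 in knockout and 11.42 in wild-type cells, a difference of −0.32. Uqcr11 stood at 8.37 and 8.65, a difference of −0.29, and Uqcrb, which lies near the ubiquinone site, at 9.78 and 9.92, a difference of −0.14. The remaining small subunits were higher in the knockout pool. Uqcr10 stood at 9.58 against 9.48, a difference of 0.10. Uqcrq stood at 9.61 against 9.30, a difference of 0.31 or 1.24-fold, the highest of all 42 subunit genes. Uqcrq exceeded 90.1% of all genes past the filter by its difference, and Uqcrh 14.8%, within the same complex.

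In complex IV, 7 of 10 subunits used in most tissues were lower, against 52.9% of all genes past the filter. The median of these subunits was −0.10. Cox4i1, a subunit through which ATP regulates the enzyme, was the lowest of them, at 10.94 in knockout and 11.28 in wild-type cells, a difference of −0.34 or 79.0% of wild type. Cox7a2 stood at 9.65 and 9.93, a difference of −0.28. Cox7b stood at 10.06 and 10.25 and Cox6c at 12.03 and 12.22, a difference of −0.19 each. The other 3 lower genes were closer to level. Cox6b1, on the side that faces cytochrome c, stood at 11.99 against 12.09, a difference of −0.10. Cox7a2l, which encodes a factor that links complexes III and IV into supercomplexes and was counted here by its symbol, stood at 10.79 against 10.88, a difference of −0.10, and Cox5b differed by −0.07.

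The 3 widely used subunits above 0 differed by little. Cox5a stood at 9.88 in knockout and 9.79 in wild-type cells, a difference of 0.09, Cox6a1 at 11.50 and 11.46, and Cox8a at 9.96 and 9.92, a difference of 0.04 for both. Cox4i1 and Cox5a, whose proteins are neighbours that enter the enzyme early in its assembly, thus lay on opposite sides of 0.

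Complex IV also has isoforms made mainly in heart, skeletal muscle, lung or testis, and 5 of the 7 such genes did not pass the level filter. Cox7a1, the heart and muscle partner of Cox7a2, had the largest difference of all 47 genes, at 5.60 in knockout and 6.48 in wild-type cells, a difference of −0.87 or 1.83-fold lower. Both of its values lay below the filter level of 6.57, where the size of a difference is less sure. Cox4i2, the lung isoform, lay just below the filter, at 6.42 and 6.55. Cox8b, of heart and muscle, stood at 5.72 and 5.77, and the testis genes Cox8c and Cox7b2 at 5.97 and 5.86 and at 3.91 and 4.05. The differences of these 4 genes lay between −0.14 and 0.11.

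The tissue isoforms past the filter were Cox6a2 and Cox6b2. Cox6a2, the heart and muscle form of Cox6a1, stood at 7.77 in knockout and 7.87 in wild-type cells, a difference of −0.10. Cox6b2, the testis form of Cox6b1, stood at 9.38 and 9.18, a difference of 0.20, the highest of complex IV. Of 6 muscle and heart markers, 4 lay below the filter, and their summed linear signal was 549.5 in knockout and 548.6 in wild-type cells. Tissue isoforms therefore gave both the lowest and the highest difference of all complex IV genes, but the lowest, Cox7a1, was below the filter. Past the filter, the lowest was the widely used Cox4i1, and the widely used genes spread from −0.34 to 0.09.

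In complex V, the alpha and beta subunits of the catalytic head were nearly level, and most genes of the other parts were lower. The F1 part, which is the head with its central stalk, had a median of −0.05 and a mean of −0.11 over 5 genes. Its alpha subunit Atp5a1 stood at 11.05 in knockout and 11.02 in wild-type cells and its beta subunit Atp5b, which carries the catalytic sites, at 11.65 and 11.69, differences of 0.03 and −0.03. The subunits of the central stalk that turns inside the head were lower in differing degree. Gamma, Atp5c1, stood at 10.93 against 11.13, a difference of −0.20. Delta, Atp5d, stood at 9.22 against 9.49, a difference of −0.27, and epsilon, Atp5e, at 10.72 against 10.77, a difference of −0.05.

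The peripheral stalk, which keeps the head from turning with the rotor, was lower in 4 of 4 genes, with a median of −0.24. Of all genes past the filter, 52.9% were lower. Atp5o, the subunit that ties the stalk to the top of the head, stood at 10.13 in knockout and 10.43 in wild-type cells, a difference of −0.29. Atp5pb, the long b subunit, stood at 9.90 and 10.20, also a difference of −0.29. Atp5h differed by −0.18 and Atp5j by −0.05, so the stalk genes were not equally lower.

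The c ring is the rotor that protons drive, and its c subunit is made from 3 genes whose mature proteins are the same. Atp5g1 stood at 9.36 in knockout and 9.33 in wild-type cells, a difference of 0.03. Atp5g2 stood at 10.80 and 10.91, a difference of −0.11, and Atp5g3 at 10.75 and 11.07, a difference of −0.32 or 80.1% of wild type. The genes for this single protein thus ranged from level to near the lowest of the complex.

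Of the 5 accessory subunits in the membrane, 4 were lower, against 52.9% of all genes past the filter. Atp5mpl, a small proteolipid at the base of the enzyme, was the lowest of all 42 genes past the filter, at 10.88 in knockout and 11.35 in wild-type cells, a difference of −0.46 or 1.38-fold lower. Atp5l differed by −0.22, Atp5k by −0.19 and Atp5md by −0.12. Atp5j2 stood at 11.86 against 11.85 and was level. Atp5mpl and Cox4i1 were the 2 subunit genes past the filter that were lower by at least 0.322, with Atp5g3 and Uqcrh just short of it.

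Genes with several probe sets showed how far probe sets of the same gene differed. Of the 47 genes, 35 had 1 probe set and 12 had several, 32 probe sets in all. In all 12 genes the probe sets had the same sign. The gap between the lowest and highest probe-set difference of a gene had a median of 0.03 and was at most 0.10 in 11 of the 12 genes. The exception was Uqcr11, whose probe sets gave −0.39 and −0.19. For comparison, 515 genes past the filter had exactly 2 probe sets, and their median gap was 0.16. The signed gap between the 2 probe sets of a gene, divided by the square root of 2, had an SD of 0.32. This is disagreement within a gene, scaled to 1 probe set, and not the spread of differences over genes. The 6 probe sets of Atp5l lay between −0.24 and −0.21, and the 2 of Atp5g1 gave 0.03305 and 0.03304. Probe sets of a gene were not shown to be independent readings, so neither the small gaps nor the shared signs measure precision. RefSeq lists 14 pseudogenes under the names of these families, copies of Atp5k, Uqcrh, Atp5l and Cox5b among them, and how far probe sets of a gene share sequence with each other or with such copies was not tested. The gaps cover probe behaviour alone and say nothing of how animals, sorts or amplifications vary.

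**Figure D3:**
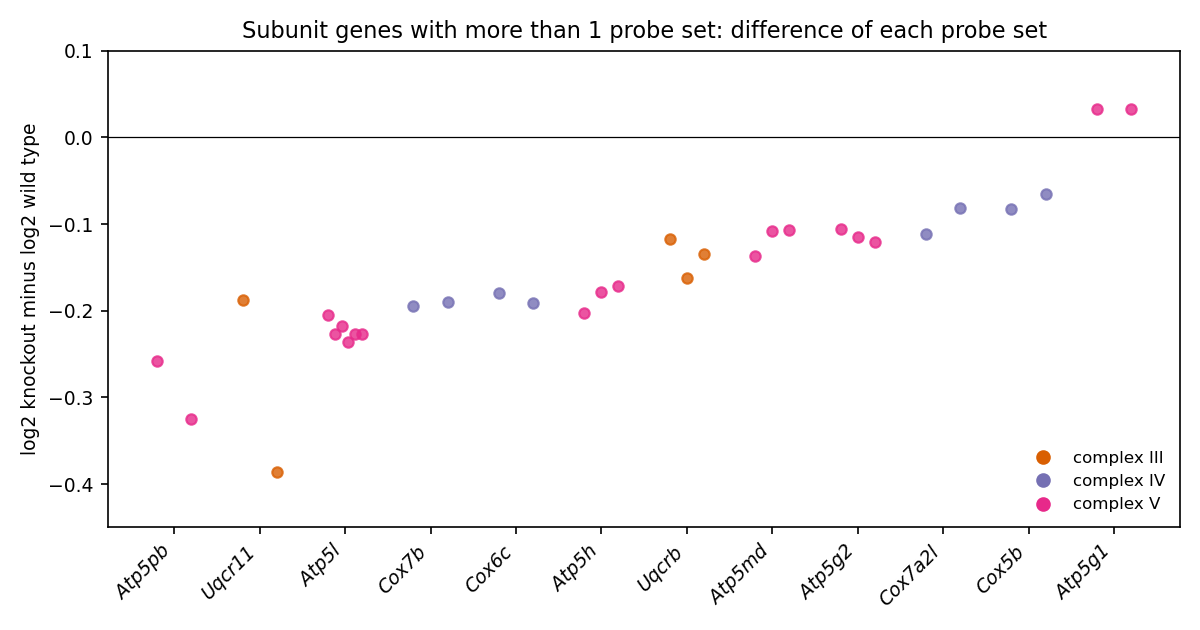
Difference of each probe set (vertical axis, log2 knockout minus log2 wild type) for the 12 subunit genes with more than 1 probe set, ordered by their mean and coloured by complex. Points of a gene lie close together, except for Uqcr11 at −0.39 and −0.19, and the probe sets of Atp5g1 alone are above 0.

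Other genes of the pathway were set beside the subunits. Of the 34 complex I subunit genes past the filter, 29 were lower, with a median of −0.21, beside −0.16 for complexes II to V. The 29 genes were 85.3% of the list, where 52.9% of all genes past the filter were lower. Lower by at least 0.322 were 9 of the 34 complex I genes, or 26.5%, and 2 of the 42 genes of complexes II to V, or 4.76%, where all genes past the filter were at 14.5%. Ndufb3, an accessory subunit of complex I named after its value was seen, differed by −0.83 and was the 1 gene of its list at least 1.5-fold lower. The assembly factors of complexes II to V, which build the enzymes but are no part of them, were nearly as often higher as lower. Of 43 listed, 36 passed the filter, 19 of them lower and 17 higher, with a median of −0.03. Single assembly factors differed by more than any of the 42 subunit genes of complexes II to V past the filter. Higd2a, which takes part in assembling complex IV and its supercomplexes, stood at 9.46 in knockout and 10.37 in wild-type cells, a difference of −0.91. Sdhaf4, a complex II assembly factor, stood at 7.36 and 6.62, a difference of 0.75. Tmem242, a factor for complex V, stood at 7.59 and 8.28, a difference of −0.69.

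Electron carriers and ubiquinone synthesis genes had a median of −0.04, also close to that of all genes. Of these genes 10 of 16, or 62.5%, were lower, where 52.9% of all genes past the filter were. The ubiquinone synthesis enzymes Coq7, Coq6 and Coq4 differed by −0.53, 0.48 and −0.45. Regulators of mitochondrial biogenesis were lower in 6 of 13 genes past the filter, with a median of 0.03. The co-activator Pprc1 stood at 8.62 in knockout and 8.19 in wild-type cells, a difference of 0.43. The mitochondrial DNA packaging and transcription factor Tfam stood at 8.50 and 8.92, a difference of −0.42, and Tfb1m, a methyltransferase of mitochondrial ribosomal RNA, at 7.48 and 7.86, a difference of −0.38. Past the filter, 78.6% of the subunit genes were lower, beside 52.8% of assembly factors, 62.5% of electron carriers and 46.2% of regulators. Each of these lists had genes of both signs, and the electron carriers were close to complex IV, at 66.7%.

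**Figure D4:**
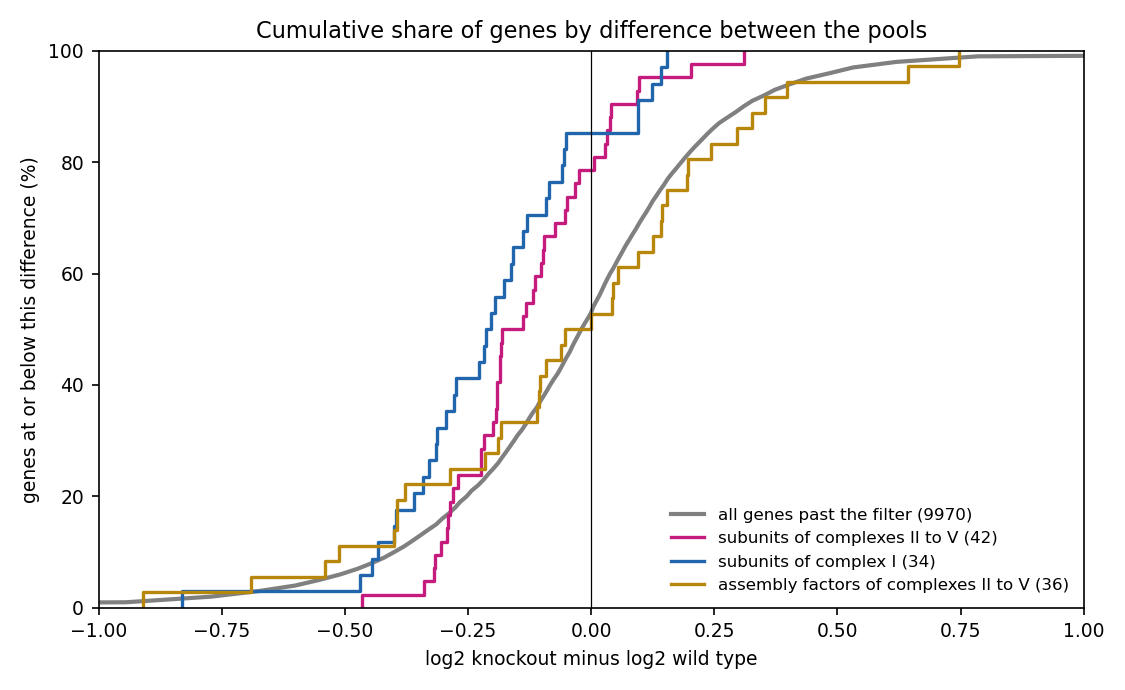
Cumulative share of genes (vertical axis, percent) at or below each difference (horizontal axis, log2 knockout minus log2 wild type) for all 9970 genes past the filter, the 42 subunits of complexes II to V, the 34 subunits of complex I and the 36 assembly factors of complexes II to V. The subunit curves cross 0 at 78.6% and 85.3%, to the left of the grey curve, which crosses at 52.9%, while the assembly factors follow the grey curve and cross at 52.8%.

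Promoter sequence was available in RefSeq (GRCm38.p6) for 35 of the 47 genes, as windows of 300 bases that run from 250 before to 50 after a transcription start. The windows were searched on both strands for 3 motifs, and a gene was counted once if any of its windows held the letters. The motif of nuclear respiratory factor 1, spelled GCGCA, any base and GCGC, was in 10 of 35 genes, or 28.6%, against 5.19% of all 27025 genes with a window. The ETS core CCGGAA, which GABP can bind, was in 16, or 45.7%, against 16.7% of all genes. The core of the antioxidant response element, TGACNNNGC, through which NRF2 acts, was in 2, Atp5o and Cox5b, or 5.71%, against 14.0% of all genes. These 27025 genes were not limited to those measured here or past the level filter, and shares among those were not counted. A match describes letters and shows neither a bound site nor a cause, and no match in a window says nothing of the factor.

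The upstream 250 bases of 4 genes, each read on the strand of its gene, show how these motifs were arranged. Uqcrfs1 and Uqcr11 are shown as lower genes of complex III with ETS cores alone, Atp5o as the lower stalk gene with an antioxidant response element core, and Cox6a1 as a gene with the same kinds of nuclear motif that was not lower. Capitals mark the motifs, which do not overlap each other.
Uqcrfs1: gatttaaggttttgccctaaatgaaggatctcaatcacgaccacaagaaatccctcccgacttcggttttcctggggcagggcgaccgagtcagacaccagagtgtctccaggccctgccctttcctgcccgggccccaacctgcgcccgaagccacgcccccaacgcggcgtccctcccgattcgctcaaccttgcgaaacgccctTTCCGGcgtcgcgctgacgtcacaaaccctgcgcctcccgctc
Uqcr11: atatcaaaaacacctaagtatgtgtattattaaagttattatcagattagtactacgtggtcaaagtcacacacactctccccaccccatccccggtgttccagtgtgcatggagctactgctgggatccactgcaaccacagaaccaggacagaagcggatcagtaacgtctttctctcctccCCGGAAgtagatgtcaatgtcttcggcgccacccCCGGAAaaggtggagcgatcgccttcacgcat
Cox6a1: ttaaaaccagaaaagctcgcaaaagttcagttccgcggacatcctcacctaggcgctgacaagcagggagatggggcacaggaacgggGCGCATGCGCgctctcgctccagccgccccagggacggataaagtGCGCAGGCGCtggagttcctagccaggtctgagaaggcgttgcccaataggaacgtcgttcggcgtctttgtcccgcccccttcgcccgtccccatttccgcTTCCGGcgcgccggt
Atp5o: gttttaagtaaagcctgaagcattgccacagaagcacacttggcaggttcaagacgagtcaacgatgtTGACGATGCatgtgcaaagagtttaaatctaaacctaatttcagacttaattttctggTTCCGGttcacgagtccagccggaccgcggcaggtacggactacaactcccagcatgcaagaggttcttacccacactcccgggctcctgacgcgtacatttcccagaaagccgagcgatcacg
The Uqcrfs1 stretch is chr13:30545317-30545566 on the minus strand, with 1 ETS core read as TTCCGG. That of Uqcr11 is chr10:80406822-80407071 on the minus strand, with 2 ETS cores. The Cox6a1 stretch is chr5:115348959-115349208 on the minus strand and holds 2 motifs of nuclear respiratory factor 1 and, next to the start, 1 ETS core. That of Atp5o is chr16:91931631-91931880 on the minus strand, with TGACGATGC and, nearer the start, 1 ETS core. The nuclear respiratory factor 1 motif of Atp5o and the core TGACCGGGC of Cox5b lay after the start and are outside the stretches shown.

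Genes with a motif had the lower medians, and genes without one were mostly lower too. The median difference was −0.19 over the 10 genes past the filter with the nuclear respiratory factor 1 motif, 9 of them lower, and −0.10 over the 22 without it, 16 of them lower. It was −0.19 over the 16 genes with an ETS core, 14 of them lower, and −0.09 over the 16 without one, 11 of them lower. Both motifs were in 5 genes, namely Sdhd, Cox6a1, Atp5h, Atp5k and Atp5o, which differed by −0.22, 0.04, −0.18, −0.19 and −0.29. The genes with the antioxidant response element core, Atp5o and Cox5b, differed by −0.29 and −0.07. Of all genes past the filter, 52.9% were lower. With single arrays, the medians and counts by motif are descriptions without a test. Medians over all genes past the filter with and without each motif were not computed, so a link of motif and difference was not tested.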

How the data were processed

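Total RNA from sorted KSL cells was amplified with NuGEN Ovation kits, labelled with biotin and read on Affymetrix Gene ST arrays of the mouse, per the labels' protocols. The submitters' processing notes name Partek; how background, normalization and probe summary were handled is not given in the sources used here. Each deposited value was taken as a log2 intensity, 1 per probe set and array, because the values reach 13.8, which exceeds what a scanner's range gives in natural or decimal logs. An array has no read depth.

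Of 28853 probe sets, 21789 had 1 gene symbol in the platform annotation and were used, 1621 had several and 5443 had none. Probe sets of a gene were averaged, and no further normalization was applied. All 47 member genes matched RefSeq (GRCm38.p6) by Entrez ID, with 0 symbols changed. Genes were counted at 1.5-fold, and a list was summarised by its counts and median beside those of all genes past the level filter. The members and lists, the rule for named genes and the alternatives were chosen with earlier results of these data known. The named genes were all members of complexes II and III, the 5 largest differences of complexes IV and V, genes past or near 1.5-fold, isoform sets, and up to 3 genes of each context list; the other members were named after their values were seen. Alternatives covered array scaling, the level filter, the choice of probe set, tissue isoforms, the fold size, and means for medians. The counting and median procedure was tested on simulated data. Python 3.11.15, numpy 2.4.6, pandas 2.3.3 and statsmodels 0.14.6 were used.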

Additional observations from a re-analysis of the deposited data

How the results depend on the processing

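The medians of all 42 subunit genes and of each complex stayed below 0 under median centring, quantile normalization, loess on mean level, no level filter, the brightest probe set of each gene, a filter at the 75th percentile, no tissue isoforms, genes with 1 probe set, means in place of medians and leaving out the member with the largest difference, and none moved by more than 0.1. That size is as large as the median of complex IV itself, −0.10, which was −0.06 with quantile normalization and −0.03 over genes with 1 probe set, an alternative chosen after the data were seen. Scaling moved the median of all genes from −0.02 to 0.0039 with quantile normalization, and 32 of 42 subunit genes were then lower, against 49.4% of all genes. Of the differences of the 47 single genes, 1 turned its sign under quantile normalization, that of Sdha, and 0 did under centring, loess or the highest probe set. The count of subunit genes at least 1.5-fold lower was 0 and became 1, Cox7a1, with no level filter, and 2 at a size of 0.322 on the log2 scale, since these settings admit more genes by construction. No replicate could be left out, and no paired analysis was possible because each genotype had 1 array.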
